A study of Homo sapiens with 6 samples.

Results

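Matrix metalloproteinases (MMPs), ADAMs, ADAMTS proteases and their inhibitors, the TIMPs, were compared between a pair of cybrids, cells made by fusing the mitochondria of one line with a nucleus from another. Members were the probe sets that the platform's table assigns to a single symbol made of MMP, ADAM, ADAMTS or TIMP and a number, without antisense genes and pseudogenes. They numbered 142 of 54613 non-control probe sets and covered 62 of 19775 genes, namely 22 MMPs, 18 ADAMs, 18 ADAMTSs and 4 TIMPs. 42 of these genes had at least 2 probe sets and 20 had 1.

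The 3 arrays called 10A/143B measured cybrids that carry mitochondria of MCF10A, a non-tumorigenic breast epithelial line, and the 3 called 468/143B measured cybrids with mitochondria of MDA-MB-468, a breast carcinoma line. Both share the nucleus of the human osteosarcoma line 143B, in its form without mitochondrial DNA. Donor cells were enucleated with actinomycin D and fused with polyethylene glycol, and both cybrids were selected in bromodeoxyuridine without uridine. Whether a cybrid is 1 clone or a pool, and whether the 3 extractions came from separate cultures, is not given in the sources used here, so p-values cover the array-to-array spread alone, and this may be technical.

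MMPs cut collagens and other matrix proteins, and most are secreted as inactive precursors whose propeptide must be removed. ADAMs are membrane-bound relatives, some of which shed growth factors, cytokines and adhesion molecules from the cell surface, while ADAMTSs are secreted and process procollagen, proteoglycans and fibrillin microfibrils. TIMPs bind the active site of these enzymes. In osteosarcoma and bone these proteases are known for the turnover of type I collagen.

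Replicates 2 and 3 were near duplicates. Over probe sets whose mean log2 level exceeded 8, the SD of their difference was 0.08 in 10A/143B, against 0.09 for 468/143B, and either differed from replicate 1 with SDs of 0.27 to 0.29. Each count is therefore also given with replicates 2 and 3 averaged, which leaves 2 samples a group. The arrays' median intensities lay between 21.7 and 24.4 for 10A/143B, against 20.4 to 21.4 for 468/143B. VIM, the mesenchymal intermediate filament, averaged 8687 in 10A/143B and 8418 in 468/143B. KRT5, a keratin of basal epithelium, averaged 1.00 in 10A/143B, the lowest value an array holds, against 1.36 in 468/143B. Other keratins were bright, with KRT18 and KRT8 at 4908 and 206 in 10A/143B, against 6198 and 439 in 468/143B. KRT19, at 3.24 in 10A/143B and 14.9 in 468/143B, lay below the array medians. The osteoblast marker SPARC averaged 1483 in 10A/143B and 2354 in 468/143B, but COL1A2 8.49 and 8.76. Of 7 epithelial markers the keratins KRT8, KRT18 and KRT19 were lower in 10A/143B and 0 higher by limma (1 higher at an unadjusted p under 0.05), with summed intensity of 4954 to 5454 in 10A/143B and 6406 to 6970 in 468/143B. Averaged, 0 were higher and 2 lower by limma (0 and 3 at an unadjusted p under 0.05). Of 7 osteoblast markers 1 was higher and 2 lower, and 1 and 1 averaged. Both lists had 42.9% of their genes past the threshold, against 33.9% of all genes, and 28.6% averaged, against 19.9%. Of 4 endothelial markers PECAM1 alone passed (154.8 in 10A/143B and 112 in 468/143B), though not averaged (adjusted p = 0.198), and of 5 leukocyte markers 0 passed by limma, 1 of them at an unadjusted p under 0.05 (sums of 45.6 to 60.1 in 10A/143B and 63.7 to 66.3 in 468/143B). The part of these markers in the results was not tested. In such bulk RNA, fewer cells of a type and less RNA per cell cannot be told apart.

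Upstream sequences are shown for 4 genes whose values follow, because they are of 2 kinds. MMP10 and MMP7 lie in the same run of MMP genes on chromosome 11, where MMP10 differed between the cybrids and MMP7 did not pass. ADAM10 and ADAMTS3 had some of the largest increases outside the MMPs. Each window holds the 200 bases before the gene's start in RefSeq, GRCh38.p14, minus strand, and capitals mark a motif found on either strand. The letters TGAGTCA stood for an AP-1 site. The letters TATAAA stood for a TATA box. A GC box was taken as GGGCGG, which on the other strand shows as its reverse complement. No 2 of the marked motifs overlap. MMP10 is from chr11:102780629-102780828, MMP7 from chr11:102530748-102530947, ADAM10 from chr15:58749708-58749907 and ADAMTS3 from chr4:72569222-72569421.
MMP10: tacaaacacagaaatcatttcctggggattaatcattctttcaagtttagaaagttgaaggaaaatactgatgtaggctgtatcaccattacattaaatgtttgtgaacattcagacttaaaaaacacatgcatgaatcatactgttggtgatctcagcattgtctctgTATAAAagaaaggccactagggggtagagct
MMP7: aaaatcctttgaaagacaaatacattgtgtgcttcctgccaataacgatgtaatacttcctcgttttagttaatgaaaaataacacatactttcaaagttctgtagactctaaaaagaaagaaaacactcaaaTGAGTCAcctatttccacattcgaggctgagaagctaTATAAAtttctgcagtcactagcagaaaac
ADAM10: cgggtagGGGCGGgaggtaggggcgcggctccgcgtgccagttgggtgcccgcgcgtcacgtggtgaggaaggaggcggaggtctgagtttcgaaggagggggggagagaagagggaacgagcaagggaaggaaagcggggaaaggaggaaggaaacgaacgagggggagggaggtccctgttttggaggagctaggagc
ADAMTS3: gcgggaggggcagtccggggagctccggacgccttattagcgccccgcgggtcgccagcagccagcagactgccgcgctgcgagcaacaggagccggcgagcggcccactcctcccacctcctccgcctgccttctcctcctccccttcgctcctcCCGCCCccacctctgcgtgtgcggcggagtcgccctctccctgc

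The TATA box lay 31 to 26 bases before the start of MMP10 and 30 to 25 bases before that of MMP7, whose AP-1 site lay 67 to 61 bases before it. The GC box lay 193 to 188 bases before the start of ADAM10 and 44 to 39 bases before that of ADAMTS3. Promoters of 36 of the 62 genes were matched by symbol, and the 250 bases before the start were searched in each. A TATA box was found in 6 of 11 MMP, 0 of 11 ADAM, 1 of 11 ADAMTS and 0 of 3 TIMP promoters, and in 10.7% of all 35116 promoters. A GC box was found in 4 of 11 MMP, 7 of 11 ADAM, 10 of 11 ADAMTS and 3 of 3 TIMP promoters, and in 42.6% of all. The AP-1 letters were found in 1 member promoter, that of MMP7, and in 4.20% of all. MMP1, MMP2, MMP3, MMP9, MMP12, MMP13 and MMP16 were among the 26 members without a matched promoter, which were not searched. The member counts take 1 promoter per protein-coding gene, whereas the shares of all promoters take every entry, without either limit. These matches describe letters in the window and not sites of binding.

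Most member genes did not pass the test, and those that did were mostly higher in 10A/143B. They included the membrane sheddases ADAM10, ADAM9 and ADAM17, the membrane-type MMP16, the stromelysin MMP10 and the procollagen protease ADAMTS3. Of these, ADAM17 and MMP16 passed on their brightest probe set alone, and ADAM9 had probe sets past the threshold in both directions. Counted by the brightest probe set of each gene, 10 of 62 were higher and 2 lower in 10A/143B (limma, Benjamini-Hochberg over all probe sets at 0.05). That is 19.4% of members, against 33.9% of all 19775 genes counted the same way, of which 19.1% were higher and 14.8% lower. With replicates 2 and 3 averaged, 7 members were higher and 0 lower by limma (7 and 1 at an unadjusted p under 0.05), or 11.3%, against 19.9% of all genes (12.4% higher, 7.48% lower). With the replicate number as a block 11 were higher and 3 lower, against 20.1% and 16.4% of all genes. The count of members higher fell to 6 without replicate 3 of 10A/143B or replicate 2 of 468/143B, where the share of all genes past the threshold in either direction was also lower, at 27.0% and 28.1%. The count lower was 1 without replicate 2 of 10A/143B and 0 by limma without replicate 3 of 10A/143B or replicate 2 or 3 of 468/143B (3, 2 and 4 at an unadjusted p under 0.05). By probe set, 17 of 142 were higher and 8 lower, against 28.0% of all probe sets (17.4% higher, 10.6% lower), and 10 and 4 averaged, against 15.8% (10.7% higher, 5.08% lower). The median log2 difference of member genes was 0.02, and that of all genes -0.02. Quantile normalization gave 7 members higher and 3 lower, against 35.8% of all genes in either direction, and median centring 9 and 3, against 35.5%. Of all probe sets past the threshold, 10A/143B was the higher cybrid for 62.2% on the deposited scale, 52.1% after quantile normalization and 51.7% after median centring, which moved the median of all genes to -0.12.

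Members were dimmer than genes in general. The brightest probe set had a mean intensity of at least 100 in 12 of 62 members (19.4%) and in 42.5% of all genes. Of these 12, 5 were higher and 0 lower in 10A/143B (41.7%), against 62.4% of all genes this bright (34.8% higher, 27.6% lower). With replicates 2 and 3 averaged 3 were higher and 0 lower, against 40.7% (24.7% higher, 16% lower). Of the 50 dimmer members, 5 were higher and 2 lower (14.0%), against 12.8% of dimmer genes (7.47% higher, 5.37% lower), and averaged 4 were higher and 0 lower, against 4.46% (3.26% higher, 1.2% lower). Array values did not overlap between the cybrids for 18 members (29.0%), 11 higher and 7 lower, against 45.8% of all genes and 40.3% of all probe sets.

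**Figure D1:**
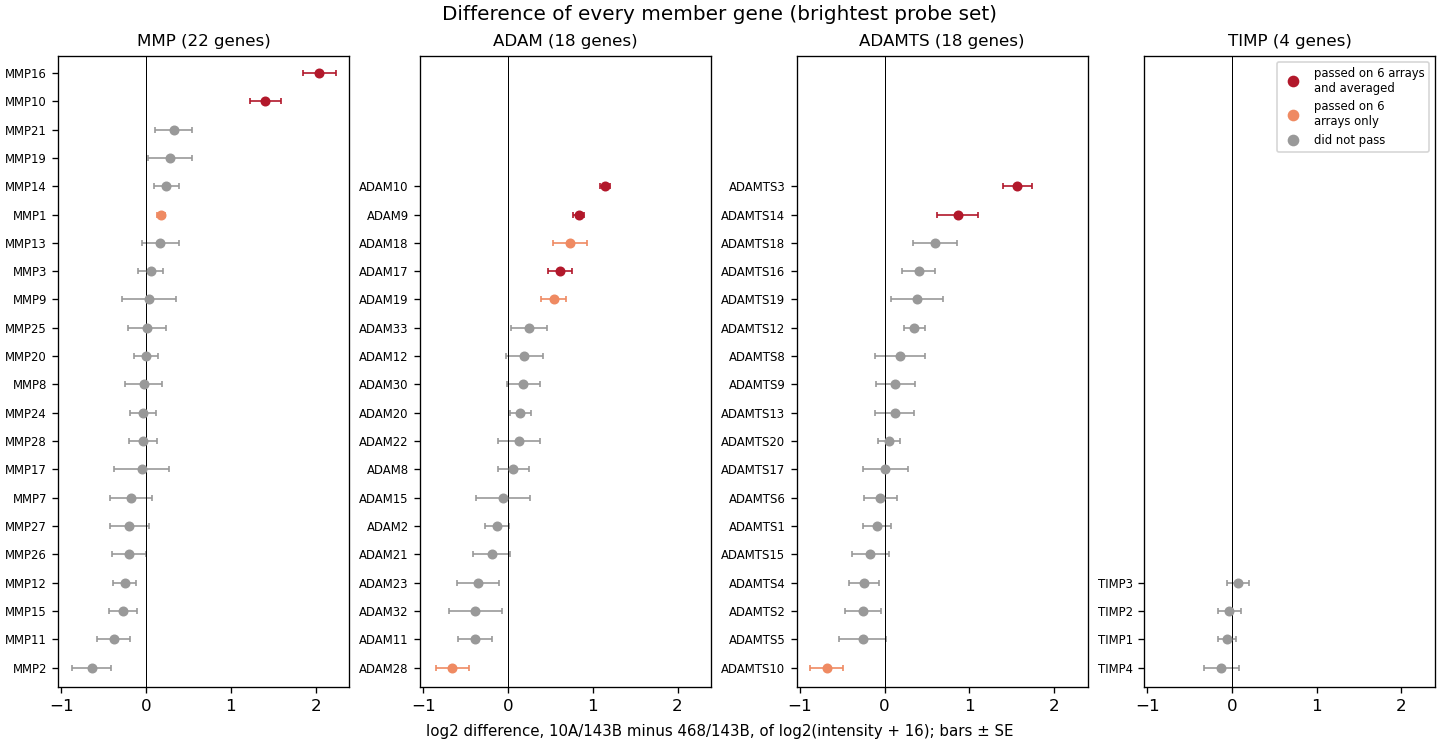
Log2 difference (10A/143B minus 468/143B, horizontal axis) of the brightest probe set of each of the 62 member genes, 1 panel per family, with bars for ± SE. Dark red marks genes past the threshold on 6 arrays and with replicates 2 and 3 averaged, orange those past it on 6 arrays only and grey the others. MMP16, at 2.04, lies farthest from 0, and all 4 TIMPs are grey.

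The sheddases ADAM10 and ADAM9 had the clearest separation among the ADAMs. ADAM10, which cuts Notch receptors, the amyloid precursor protein and cadherins, had intensities of 1552, 1552 and 1596 in replicates 1, 2 and 3 of 10A/143B, against 695, 719 and 685 in 468/143B. It was 2.21-fold higher in 10A/143B (log2 difference 1.15 ± 0.06, SE, n = 3 arrays per group, adjusted p = 8.34e-06, or 0.00122 averaged). No array of 10A/143B came near those of 468/143B. Its other 2 probe sets were higher as well, by 1.44 ± 0.15 (adjusted p = 1.34e-04) and 0.89 ± 0.25 (adjusted p = 0.0262, but 0.130 averaged). ADAM10 was thus the member whose 3 probe sets all passed in the same direction.

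ADAM9, another broadly expressed membrane protease, had 1698, 1722 and 1675 in 10A/143B, against 1003, 923 and 917 in 468/143B on its brightest probe set. This was 1.78-fold higher in 10A/143B (0.83 ± 0.06, adjusted p = 3.35e-05, or 0.00309 averaged). Its probe sets went both ways. A second had 296, 193 and 223 in 10A/143B, against 191, 69.6 and 66.7 in 468/143B (1.14 ± 0.34, adjusted p = 0.0347, but 0.151 averaged). The last, much dimmer, had 1.58, 6.50 and 11.0 in 10A/143B, against 24.1, 46.5 and 26.4 in 468/143B (-1.10 ± 0.25, adjusted p = 0.00962, or 0.0399 averaged). The suffix of both these probe sets marks probes shared by transcripts of 1 gene. With the mean of its probe sets ADAM9 no longer passed (0.29, adjusted p = 0.116).

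ADAM17, which releases TNF and ligands of the EGF receptor, was 1.53-fold higher in 10A/143B. Its intensities were 537, 407 and 369.6 in 10A/143B, against 244, 302 and 290.0 in 468/143B (0.61 ± 0.15, adjusted p = 0.0130, or 0.0414 averaged). The groups did not overlap, but the difference was 1.09 in replicate 1 and 0.37 in replicates 2 and 3. That probe set carries the suffix for possible cross-hybridisation. The 2 others gave 0.25 ± 0.12 and 0.21 ± 0.19 (adjusted p = 0.175 and 0.507), so the call rested on 1 probe set of 3. The mean of the 3, with that probe set included, also passed (0.36, adjusted p = 0.0345).

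ADAM19, an active membrane protease, averaged 509 ± 110.0 in 10A/143B and 339 ± 4.91 in 468/143B (SD, n = 3; 0.54 ± 0.15, adjusted p = 0.0254, but 0.193 averaged). The difference was 0.18 in replicate 1 and 0.72 in replicates 2 and 3. Leaving out any 1 array except replicate 1 of 10A/143B ended the call (adjusted p = 0.0687 to 0.103). ADAM18, a sperm-associated member without protease activity, averaged 45.0 ± 7.56 in 10A/143B and 20.8 ± 5.01 in 468/143B (0.73 ± 0.20, adjusted p = 0.0252, but 0.191 averaged). Its adjusted p was 0.0890 and 0.122 when replicate 2 or 3 of 10A/143B was left out, and 0.0882 when replicate 2 of 468/143B was. Quantile normalization also ended the call (adjusted p = 0.0546), as did the mean with its other, dimmer probe set, which gave -0.11 (mean 0.31, adjusted p = 0.138). ADAM28, known from lymphocytes, was the one ADAM lower by its brightest probe set, with 22.1 ± 2.11 in 10A/143B and 44.4 ± 9.46 in 468/143B (-0.65 ± 0.19, adjusted p = 0.0340, but 0.200 averaged). It lost the call without any 1 array except replicate 1 of 468/143B (adjusted p = 0.0521 to 0.125). Its 3 other probe sets, all dimmer, gave 0.34, -0.09 and -0.12 without passing, and the mean of all gave -0.13 (adjusted p = 0.496). None of ADAM19, ADAM18 and ADAM28 passed with the near-duplicate arrays averaged.

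ADAM22 and ADAM23, neuronal adhesion proteins without protease activity, passed on dimmer probe sets only. One of the 8 probe sets of ADAM22 passed, with 24.8 ± 9.48 in 10A/143B and 8.26 ± 2.39 in 468/143B (0.73 ± 0.22, adjusted p = 0.0396, but 0.264 averaged and 0.0520 with the replicate number as a block). A probe set of ADAM23 had 75.6, 105 and 106 in 10A/143B, against 24.4, 44.6 and 28.2 in 468/143B (1.21 ± 0.21, adjusted p = 0.00247, or 0.0276 averaged), and another was higher by 0.74 ± 0.23 (adjusted p = 0.0421, but 0.264 averaged). The brightest probe set of ADAM23 gave -0.35 ± 0.24 (adjusted p = 0.348), with 39.4 in replicate 1 of 10A/143B and 85.6 to 92.4 on the other 5 arrays, so ADAM23 has no settled direction. Of 18 ADAMs, 5 were higher and 1 lower by the brightest probe set (3 and 0 averaged, also at an unadjusted p under 0.05). These are 33.3% and, averaged, 16.7% of the family, against 33.9% and 19.9% of all genes. The median of the ADAMs was 0.14, and 0.07 after quantile normalization or 0.03 after median centring. The 10 ADAMs without any call had mean intensities of 5.25 to 29.9 and differences between -0.39 and 0.25.

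**Figure D2:**
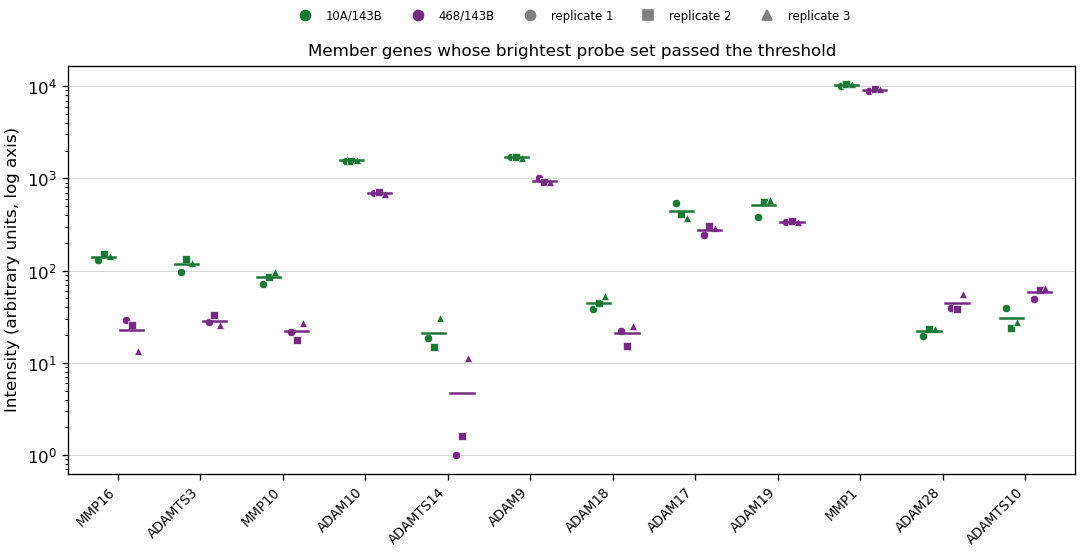
Intensity (vertical log axis) on each array for the 12 member genes whose brightest probe set passed, ordered by log2 difference, with 10A/143B in green at the left of each gene, 468/143B in purple at the right, marker shape by replicate and a line at each mean. ADAM10 lies at 1552 to 1596 against 685 to 719, and ADAM28 and ADAMTS10 are the 2 genes whose 10A/143B points lie below.

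Among the MMPs the largest difference was that of MMP16, the membrane-type enzyme MT3-MMP, which can activate the gelatinase MMP2. Its brightest probe set had 129.8, 151 and 145 in replicates 1, 2 and 3 of 10A/143B, against 29.4, 26.0 and 13.4 in 468/143B. It was 4.12-fold higher in 10A/143B (2.04 ± 0.20, adjusted p = 1.02e-04, or 0.00296 averaged), by 1.68 in replicate 1 and 2.22 in replicates 2 and 3. The groups lay far apart, but the values in 468/143B lay near the array median of 22.0, where they cannot be told from background. The other 4 probe sets of MMP16 did not pass, with differences between -0.26 and 0.56 and group means between 6.28 and 35.9.

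MMP10, a stromelysin that cuts proteoglycans and activates procollagenases, had 72.0, 86.2 and 96.3 in 10A/143B, against 21.4, 17.5 and 27.1 in 468/143B. It was 2.65-fold higher in 10A/143B on its single probe set (1.41 ± 0.18, adjusted p = 5.33e-04, or 0.0144 averaged). The values of MMP10 in 468/143B lay near the array median of 22.0, where they cannot be told from background. MMP1, the interstitial collagenase and the next gene on the chromosome, had 10086, 10441 and 10514 in 10A/143B, against 8903, 9281 and 9281 in 468/143B. The groups did not overlap, but the difference was small (0.18 ± 0.04, adjusted p = 0.0167, but 0.213 averaged) and was 0.07 with each array centred on its median (adjusted p = 0.235). It was lost without any 1 array except replicate 1 of 10A/143B (adjusted p = 0.0548 to 0.0797). MMP1 lay close to the highest intensities of the arrays, 12417 to 13125 in 10A/143B and 10809 to 12077 in 468/143B. The part of this in its small difference was not tested.

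MMP7, MMP20, MMP27, MMP8, MMP10, MMP1, MMP3, MMP12 and MMP13 are neighbours in this order on chromosome 11, with no other protein-coding gene between them. Apart from MMP10 and MMP1 none passed. Over the 7 others single arrays ranged from 2.41 to 43.1, and differences ran from -0.25 for the elastase MMP12 to 0.17 for the collagenase MMP13. The stromelysin MMP3 differed by 0.05 ± 0.15 (adjusted p = 0.843) and the matrilysin MMP7 by -0.18 ± 0.25 (adjusted p = 0.667). Values this low cannot be told from background, and no test compared MMP10 with its neighbours. The median of all genes on chromosome 11 was -0.10.

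**Figure D3:**
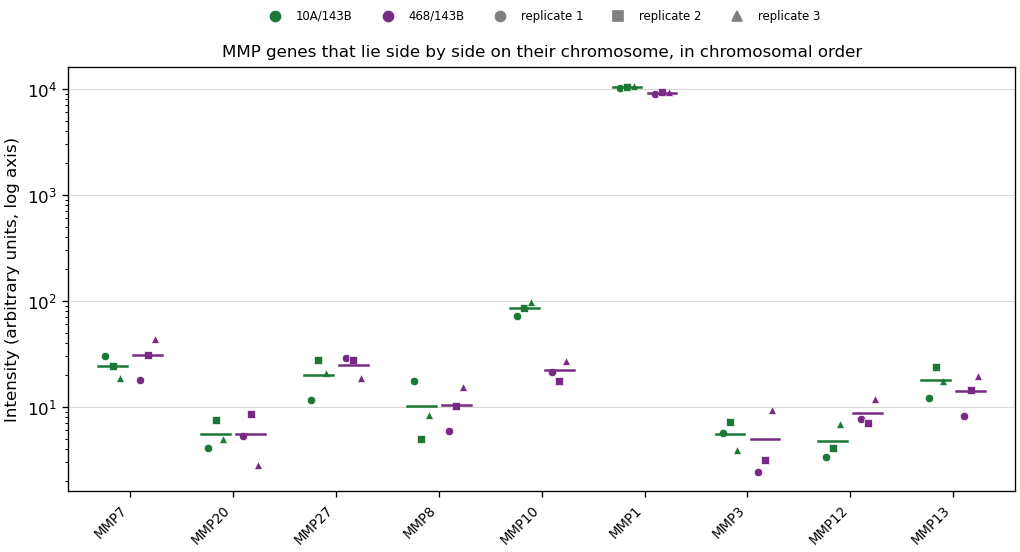
Intensity (vertical log axis) on each array of the 9 neighbouring MMP genes of chromosome 11 in chromosomal order, with 10A/143B in green at the left, 468/143B in purple at the right, marker shape by replicate and a line at each mean. MMP10 is the gene whose green points (72.0 to 96.3) stand well above its purple points (17.5 to 27.1).

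The gelatinase MMP2, which degrades denatured collagen and basement membrane, did not pass on its brightest probe set. That probe set had 124, 263 and 229 in 10A/143B, against 290.0, 335 and 322 in 468/143B (-0.64 ± 0.23, adjusted p = 0.0732). The arrays did not overlap, but replicate 1 of 10A/143B stood apart. The difference was -1.13 in replicate 1 and -0.40 in replicates 2 and 3. With the replicate number as a block it passed (adjusted p = 0.0230), as it did when replicate 1 of 10A/143B was left out (-0.34, adjusted p = 0.0393) and when replicate 2 was (-0.84, adjusted p = 0.0339), but not averaged (adjusted p = 0.125). It passed under 9 of the 19 alternatives, among them quantile normalization (-0.76, adjusted p = 0.0382) and median centring (-0.75, adjusted p = 0.0220). A dimmer probe set of MMP2 passed, with 7.67, 1.00 and 7.67 in 10A/143B and 58.1, 14.0 and 22.8 in 468/143B (-1.06 ± 0.33, adjusted p = 0.0422, but 0.0868 averaged).

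MMP14, the membrane-type enzyme MT1-MMP and the main activator of proMMP2, had 309, 468 and 434 in 10A/143B, against 349.7, 329 and 324 in 468/143B (0.24 ± 0.14, adjusted p = 0.281). The groups overlapped through replicate 1 of 10A/143B, and without that array MMP14 was 0.41 higher (adjusted p = 0.00571). Other, dimmer probe sets of MMP14 gave 0.09, -0.62 and -0.70 without passing. The gelatinase MMP9 averaged 66.0 ± 32.8 in 10A/143B and 60.3 ± 14.7 in 468/143B (0.03 ± 0.32, adjusted p = 0.960). Of 22 MMPs, 3 were higher and 0 lower by the brightest probe set (3 and 1 at an unadjusted p under 0.05), and 2 and 0 averaged (2 and 1 unadjusted). These are 13.6% and, averaged, 9.09% of the family, against 33.9% and 19.9% of all genes. The 17 MMPs without any call that were dimmer than 100 had mean intensities of 4.27 to 63.2 and differences from -0.38 to 0.33.

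Of the ADAMTS family, 2 members were higher and 1 lower in 10A/143B (2 and 0 averaged, by limma as at an unadjusted p under 0.05). These are 16.7% and, averaged, 11.1% of the family, against 33.9% and 19.9% of all genes. Both higher members process the amino ends of procollagens. ADAMTS3 had 95.7, 134 and 120.3 in 10A/143B, against 27.9, 32.7 and 25.5 in 468/143B. It was 2.96-fold higher in 10A/143B (1.56 ± 0.17, adjusted p = 1.95e-04, or 0.00765 averaged), with no overlap. The values of ADAMTS3 in 468/143B lay little above the array median of 22.0. ADAMTS14 averaged 21.2 ± 8.07 in 10A/143B and 4.67 ± 5.83 in 468/143B (0.86 ± 0.24, adjusted p = 0.0277, or 0.0390 averaged), where it stood at the array's lowest value, 1, in replicate 1. Leaving out replicate 3 of 10A/143B gave an adjusted p of 0.0917, and leaving out replicate 1 or 2 of 468/143B gave 0.0992 and 0.108. With replicates 2 and 3 only it was 0.0980. The mean of ADAMTS14 over all arrays was 12.9, below the array median of 22.0, where values cannot be told from background. ADAMTS2, another of these procollagen proteases, differed by -0.25 ± 0.21 (adjusted p = 0.461).

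ADAMTS10, a protease of fibrillin microfibrils, averaged 30.5 ± 8.17 in 10A/143B and 58.2 ± 8.20 in 468/143B (-0.68 ± 0.20, adjusted p = 0.0317, but 0.282 averaged). It was lost without replicate 2 or 3 of either cybrid (adjusted p = 0.104 to 0.130), and its other, dimmer probe set gave 0.05. ADAMTS18 did not pass on 6 arrays but did with the replicate number as a block (0.60 ± 0.26, adjusted p = 0.129, but 0.0349 as a block), with 59.8 ± 20.9 in 10A/143B and 33.2 ± 8.81 in 468/143B. ADAMTS12 averaged 211 ± 17.0 in 10A/143B and 163 ± 20.5 in 468/143B without overlap, but did not pass (0.35 ± 0.12, adjusted p = 0.0655). ADAMTS1, which cuts the proteoglycans aggrecan and versican, averaged 120.3 ± 23.2 in 10A/143B and 128 ± 19.1 in 468/143B (-0.09 ± 0.16, adjusted p = 0.752). The 13 dimmer members of the family without a call, ADAMTS2 and ADAMTS18 among them, had mean intensities of 5.69 to 46.5 and differences from -0.26 to 0.60.

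**Figure D4:**
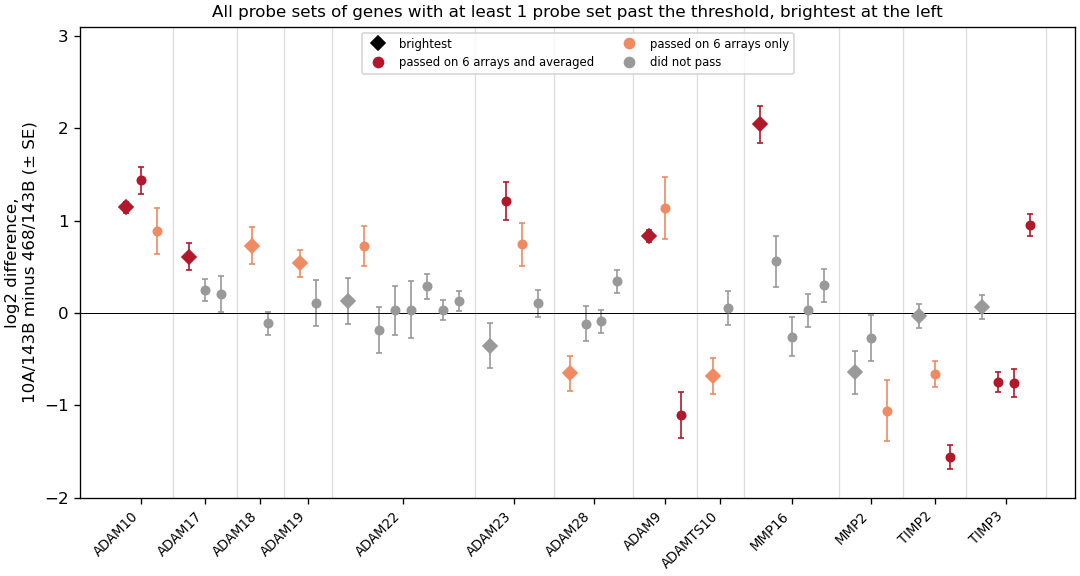
Log2 difference (10A/143B minus 468/143B, vertical axis, bars ± SE) of every probe set of the genes with several probe sets and at least 1 past the threshold, ordered by brightness from the left, with diamonds for the brightest. Dark red passed on 6 arrays and averaged, orange on 6 arrays only and grey not at all. ADAM10 has its 3 probe sets above 0, while ADAM9 and TIMP3 have calls on both sides.

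No TIMP passed on its brightest probe set, also at an unadjusted p under 0.05, but the other probe sets of TIMP2 and TIMP3 did. TIMP1, a secreted inhibitor of most MMPs, had 1448, 1758 and 1833 in 10A/143B, against 1563, 1898 and 1783 in 468/143B (-0.06 ± 0.10, adjusted p = 0.742). The groups overlapped throughout. TIMP4 was dim, with 11.2, 18.5 and 16.3 in 10A/143B, against 23.9, 12.2 and 18.9 in 468/143B (-0.12 ± 0.20, adjusted p = 0.720).

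TIMP2 inhibits MMPs and also joins MMP14 in activating proMMP2. Its brightest probe set had 304, 362 and 347 in 10A/143B, against 282, 380.0 and 380.0 in 468/143B (-0.03 ± 0.13, adjusted p = 0.906), and the groups overlapped. The name of that probe set ends in _x_at or _s_at, for possible cross-hybridisation or probes shared between transcripts. A second probe set, without these suffixes, had 183.5, 140.1 and 156 in 10A/143B, against 217, 288 and 284 in 468/143B (-0.66 ± 0.14, adjusted p = 0.00823, but 0.120 averaged). The third had 36.3, 41.1 and 36.8 in 10A/143B, against 148, 143 and 139 in 468/143B. There TIMP2 was 2.95-fold lower in 10A/143B (-1.56 ± 0.13, adjusted p = 5.24e-05, or 0.00358 averaged), so its probe sets ran from no detectable difference to the largest decrease among the 142 member probe sets. The mean of the 3 probe sets gave -0.75 (adjusted p = 4.93e-04).

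TIMP3 stays bound to the matrix and also inhibits ADAM17 and aggrecan-cutting ADAMTSs. Its brightest probe set had 231, 276 and 272 in 10A/143B, against 296, 223 and 226 in 468/143B (0.07 ± 0.13, adjusted p = 0.765). The next had 125, 154 and 144 in 10A/143B, against 252, 254 and 236 in 468/143B (-0.75 ± 0.11, adjusted p = 9.99e-04, or 0.0211 averaged). Another went the same way, with 94.4, 114 and 147 in 10A/143B, against 208, 215 and 201 in 468/143B (-0.76 ± 0.15, adjusted p = 0.00529, or 0.0324 averaged). The last went the other way, with 193, 228 and 223 in 10A/143B, against 104, 109 and 95.7 in 468/143B. On it TIMP3 was 1.93-fold higher in 10A/143B (0.95 ± 0.12, adjusted p = 3.54e-04, or 0.0149 averaged), again with no overlap. TIMP3 therefore has no settled direction. Calls in both directions occurred in 2 of the 42 member genes with several probe sets, ADAM9 and TIMP3, against 6.21% of the 10523 such genes on the array. All 4 probe sets of TIMP3 carry the suffix for probes shared between transcripts, and the gene overlaps SYN3. Overlap was not particular to TIMP3. TIMP1 overlaps SYN1, TIMP2 overlaps CEP295NL, TIMP4 overlaps SYN2 and ADAM9 overlaps TM2D2. The part of suffix and overlap in these calls was not tested.

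**Figure D5:**
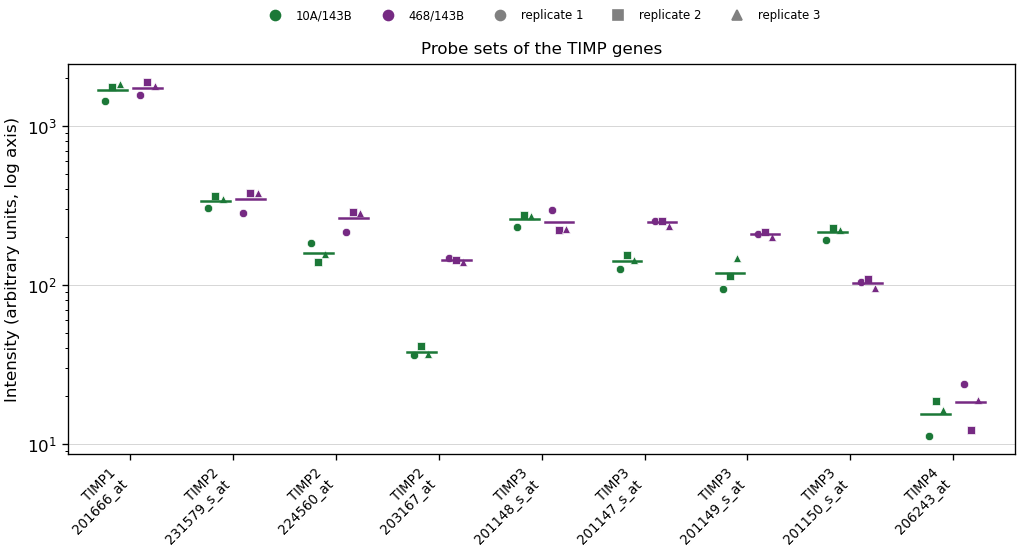
Intensity (vertical log axis) on each array for the 9 probe sets of the TIMP genes, by gene and then by brightness, with 10A/143B in green at the left, 468/143B in purple at the right, marker shape by replicate and a line at each mean. The dimmest TIMP2 probe set lies at 36.3 to 41.1 in 10A/143B against 139 to 148 in 468/143B, and the dimmest TIMP3 probe set is the one whose 10A/143B points lie above.

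Genes that activate, inhibit or assist these proteases went both ways. Of 37 measured, 6 were higher and 7 lower in 10A/143B (35.1%, against 33.9% of all genes), and 2 and 5 averaged (18.9%, against 19.9%). Their median log2 difference was -0.24, against -0.02 over all genes. THBS1, a matrix glycoprotein that binds MMPs, averaged 306 ± 53.9 in 10A/143B and 1317 ± 106 in 468/143B (-2.06 ± 0.13, adjusted p = 1.49e-05). BSG, the membrane protein EMMPRIN known for inducing MMPs, averaged 1022 ± 127 in 10A/143B and 2246 ± 179 in 468/143B (-1.13 ± 0.10, adjusted p = 6.59e-05). FRMD8, a partner of the iRhoms that keep ADAM17 at the cell surface, averaged 169.6 ± 12.2 in 10A/143B and 67.1 ± 3.58 in 468/143B (1.16 ± 0.12, adjusted p = 1.56e-04), while the iRhom RHBDF1 was lower by 0.93 ± 0.17 (adjusted p = 0.00374). RECK, a membrane inhibitor of several MMPs, named here after its values were seen, averaged 53.8 ± 3.98 in 10A/143B and 106 ± 9.60 in 468/143B (-0.81 ± 0.14, adjusted p = 0.00243).

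Of 40 measured membrane proteins that ADAM10 or ADAM17 can cut, 9 were higher and 9 lower in 10A/143B (45.0%, against 33.9% of all genes), and 7 and 5 averaged (30.0%, against 19.9%). Their median difference was -0.18. Lower were the EGF-family ligands NRG1 (-2.37 ± 0.15, adjusted p = 1.69e-05) and HBEGF (-1.28 ± 0.09, adjusted p = 2.34e-05) and the Notch ligand JAG1 (-1.47 ± 0.08, adjusted p = 8.14e-06). The TGF-beta receptor TGFBR1 was higher (0.90 ± 0.09, adjusted p = 1.48e-04). All 9 genes named from these lists also passed with replicates 2 and 3 averaged, RECK only narrowly (adjusted p = 0.04995). The probe sets of RECK and JAG1 carry the suffix for possible cross-hybridisation. Array data on RNA do not measure shedding or protease activity.

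Differences varied with gene length across the array, and many members are long. Of 62 members, 15 (24.2%) fell in the longest 10% of protein-coding genes, whose median difference was 0.18. MMP16 and ADAMTS3 lie in that class and ADAM10, ADAM9, ADAM18 and ADAM19 in the next, with a median of 0.21, whereas MMP10 and MMP1 lie in classes with medians of -0.11 and -0.13. Spearman's rho of log2 difference with length was 0.20 across the 62 members and 0.26 across 16520 protein-coding genes, given as a description across genes that share libraries. ADAMTS3 lies on chromosome 4, where the median of all genes was 0.16. The part of length in the results was not tested.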

How the data were processed

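The deposited values are linear intensities for every probe set on each array. Per the labels' protocols, triplicate RNA extractions were made, and 5 µg of total RNA entered cDNA synthesis and the product was biotin-labelled. No source used here states the summary algorithm, background correction or scaling, and the array files name no genome build. Group and replicate number come from the source names. The sample titles carry another numbering, in which replicate 1 is titled 3, replicate 2 is titled 1 and replicate 3 is titled 2. This holds for either cybrid, so both numberings pair the same arrays. Control probe sets (62) were left out. Of 42898 probe sets in the platform table, 41097 had 1 symbol, updated through Entrez identifiers to RefSeq (GRCh38.p14), which also gave order, overlap and relative length of genes and the promoter sequences.

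Values were taken as log2(intensity + 16), so fold changes understate those of dim genes. All 54613 probe sets were fitted with limma 3.58.1 in R 4.3.3 (lmFit, eBayes with an intensity trend), and every adjusted p is Benjamini-Hochberg over all of them. Each gene is counted by its brightest probe set, judged on the mean of all arrays. Differences are 10A/143B minus 468/143B. The fit was tested on simulated data for 3 independent arrays a group, where it called 192 of 200 probe sets changed by 2 on the log2 scale and 7 of the unchanged ones. The changed probe sets were drawn from those with a mean log2 level above 7. Smaller changes, and changes in dimmer probe sets such as those of most members, were not simulated. The 6-array fit treats the near-duplicate replicates 2 and 3 as separate, so its p-values may be too small, and the averaged fit stands beside it.

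The members, lists and tests were chosen with earlier results of these data known. Genes were named if any probe set passed, or if uncalled with a mean intensity of at least 100, and all TIMPs were named. The dimmer uncalled genes MMP3, MMP7, MMP9, MMP12, MMP13, ADAMTS2 and ADAMTS18 were named after their values were seen. Arrays are given singly for those with a brightest-probe-set difference of at least 1, for TIMPs and for genes with calls both ways, and for others that were chosen after their values were seen. Of the lists, the up to 4 largest changes past the threshold were named. Same-numbered arrays of both groups deviated together from their group means (correlations of 0.27, 0.22 and 0.21 for replicates 1, 2 and 3). The replicate number was taken to pair them, from the data and not from a statement in the labels. Replicates 2 and 3 were near duplicates, and no correlation was computed between arrays of unlike number. These correlations therefore cannot show that 2 pairs with 2 and 3 with 3. The number of arrays limits the precision. Alternatives covered scaling, the offset, a filter on dim probe sets, the choice of probe set, the trend, the block and leaving out arrays.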

Additional observations from a re-analysis of the deposited data

How the results depend on the processing

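Of the 12 member genes past the threshold, 4 (ADAM10, ADAMTS3, MMP10 and MMP16) passed in the same direction under all 19 alternatives, each a refit or a rule for choosing the probe set. For these 4 the suffix-free rule kept the same probe set, so it tested no other. MMP10 and ADAMTS3 have a single probe set, so the mean of probe sets left their difference unchanged. That mean gave 0.54 for MMP16 (adjusted p = 0.00812), whose 4 other probe sets did not pass. Over 22 member genes, those named by rule, 351 values kept their side of the threshold, 43 no longer passed and 19 newly passed. Of the 351, 17 changed sign, all in 8 genes that did not pass as reported. Of genes that passed, 1 reversed, ADAMTS10, with 0.052 (adjusted p = 0.878) on its brightest probe set without an _x_at or _s_at suffix. The count of members higher was 10 and ran from 6 to 13 without 1 array, with 14 for replicates 2 and 3 only and 12 with replicate 1 as a batch term. Of all genes, 19.1% were higher as reported and 15.5% to 21.8% without 1 array. That share was 24.6% with replicates 2 and 3 only and 22.3% with the batch term. The count lower was 2, with 0 when replicates 2 and 3 were averaged (1 at an unadjusted p under 0.05), 4 with replicates 2 and 3 only, 1 with suffix-free probe sets and 0 to 2 without 1 array (2 to 4 at an unadjusted p under 0.05). Of all genes, 14.8% were lower as reported, 7.48% averaged and 11.2% to 16.5% without 1 array. The share lower was 20.4% with replicates 2 and 3 only and 11.8% of genes with a suffix-free probe set. The replicate block gave 11 higher and 3 lower, against 20.1% and 16.4% of all genes. It changed no member call other than those given for ADAM22, ADAMTS18 and MMP2. Over all probe sets 15293 passed on 6 arrays and 8609 averaged. Among suffix-free probe sets the 1 member lower was TIMP2 (-0.66, adjusted p = 0.00823). The 2 lower as reported, ADAM28 and ADAMTS10, did not pass there (adjusted p = 0.716 and 0.878). ADAM17 did not pass on its suffix-free probe set (0.25, adjusted p = 0.175). With no detection calls, values of members near the array median of 22.0, below which 86 of 142 probe sets lay, cannot be told from background, and a difference there may be missed. The cause of each change was not tested.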
